A study of Mus musculus with 6 samples.

Results

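The testis-specific serine kinases are 6 protein kinases, Tssk1 to Tssk6, taken here with Tsks, the protein that Tssk1 and Tssk2 bind and phosphorylate. The members were the probes whose gene name on the array is one of these 7 symbols, and each of the 7 genes had 1 probe among 55681 probes for 35019 gene names. The probes were read on 6 one-colour Agilent arrays of whole testis, 3 of B6 mice (C57BL/6, labelled wt) and 3 of B6.MRLc1 mice. B6.MRLc1 is a congenic strain with C57BL/6 background that carries a telomeric stretch of MRL chromosome 1. All 6 mice were 3-month-old males kept free of specific pathogens, and all testes, those of B6 included, were taken 10 days after the scrotum was held once at 43 °C for 20 min. No value here is a response to heat, since unheated testes were not part of the comparison. The comparison of the strains bears on the study's stated subject, calcification in the testis after heat.

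The Tssk kinases belong to the CAMK group of kinases and are made almost only in the male germ line, mainly in spermatids, the haploid cells that reshape into sperm. During this reshaping the nucleus condenses, the tail is assembled and histones give way to protamines. Several of the kinases are needed for male fertility in mice, and the chaperone Hsp90 with the small co-chaperone Tsacc activates Tssk6.

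The members lay on 6 chromosomes, none of them chromosome 1. In mm9, the build named in the file headers, the array annotation placed the Tssk1 probe at chr16:17895321-17895380 and the Tssk2 probe at chr16:17900050-17900109. The others were placed at chr4:129166305-129166364 for Tssk3, chr14:56270566-56270625 for Tssk4, chr15:76202399-76202458 for Tssk5, chr8:72427356-72427415 for Tssk6 and chr7:52213345-52213404 for Tsks. Where a probe falls among exons was not analysed here. Each probe sequence occurred once on the array, and the longest run that a member's probe shared with another member's probe was 6 to 8 of 60 bases. A pair of probes shows what was hybridised, one from a member whose strains did not overlap and one from a member whose strains did. Both are given 5′ to 3′ as in the deposited tables.
Tssk1 probe: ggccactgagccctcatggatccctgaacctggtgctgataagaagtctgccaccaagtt
Tssk4 probe: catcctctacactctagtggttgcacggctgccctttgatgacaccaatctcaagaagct

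Tssk1 and Tssk2 are neighbours on chromosome 16, with 2983 bases between the genes and 0 other genes starting between them in the RefSeq annotation of GRCm38.p6. Of the 7 members, 6 had a start site in the RefSeq promoter table, and Tssk5 did not. The 250 bases before the start are shown for the neighbouring pair, whose shared stretch was the longest aligned in any pair of members. In GRCm38.p6 the windows are chr16:17893953-17894202 on the + strand for Tssk1 and chr16:17898387-17898636 on the + strand for Tssk2. Capitals mark the shared stretch.
Tssk1 upstream: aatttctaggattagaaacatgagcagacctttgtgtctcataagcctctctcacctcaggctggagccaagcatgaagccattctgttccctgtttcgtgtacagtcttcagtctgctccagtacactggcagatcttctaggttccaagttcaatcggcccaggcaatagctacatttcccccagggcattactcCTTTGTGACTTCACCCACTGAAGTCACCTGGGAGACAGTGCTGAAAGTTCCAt
Tssk2 upstream: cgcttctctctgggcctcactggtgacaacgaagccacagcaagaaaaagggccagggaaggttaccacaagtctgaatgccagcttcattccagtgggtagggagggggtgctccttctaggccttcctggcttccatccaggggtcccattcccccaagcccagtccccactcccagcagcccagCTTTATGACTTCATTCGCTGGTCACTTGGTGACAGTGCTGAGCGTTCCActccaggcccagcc
In a local alignment 41 of 52 columns were identical (78.8%, with 8 mismatches and 3 gaps), and the longest identical run was 11 bases. The stretch began 53 bases before the Tssk1 start and 63 bases before the Tssk2 start. The best local alignments of the other member pairs spanned at most 29 columns, with 73.9% to 92.3% identical. The longest identical run in those pairs of windows was at most 10 bases. Windows of other genes were not aligned.

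The next 2 windows are those of Tsks, the member with the clearest strain difference, and of Tssk6, the member whose window held motifs from the list searched. They lie at chr7:44942990-44943239 and chr8:69901934-69902183 in GRCm38.p6, both on the + strand. Capitals in the Tssk6 window mark 2 GC boxes and 1 short CRE motif.
Tsks upstream: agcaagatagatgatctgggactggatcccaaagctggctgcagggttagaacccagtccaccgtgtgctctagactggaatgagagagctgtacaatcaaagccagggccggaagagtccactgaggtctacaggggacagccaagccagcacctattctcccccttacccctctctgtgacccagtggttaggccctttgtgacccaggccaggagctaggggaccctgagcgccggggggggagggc
Tssk6 upstream: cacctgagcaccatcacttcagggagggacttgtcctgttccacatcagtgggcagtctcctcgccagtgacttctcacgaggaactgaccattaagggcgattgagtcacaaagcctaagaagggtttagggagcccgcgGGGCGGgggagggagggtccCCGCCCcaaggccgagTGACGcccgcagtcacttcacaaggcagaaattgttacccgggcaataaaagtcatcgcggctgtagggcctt
Over both strands, the full CRE TGACGTCA, to which Creb1 and Crem bind, was in 0 of the 6 members' windows and in 1.55% of all 32851 windows of 250 bases. The short CRE motif TGACG, which the full CRE contains, was in the Tssk6 window and in 17.8% of all windows. The GC box GGGCGG was in the Tssk6 window and in 32.7% of all. The TATA box TATAAA (12.4% of all windows) and the RFX motif GTTGCC (10.4%) were in 0 of the 6. The octamer TGACTTCA, chosen after the sequences were seen, was in the Tssk1 and Tssk2 windows and in 1.31% of all windows. The windows' GC content was 48.4% for Tssk1, 58.8% for Tssk2, 59.2% for Tssk3, 40.8% for Tssk4, 58.8% for Tssk6 and 59.6% for Tsks, against a median of 52.4%. A match is a description of these letters and shows no binding.

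Levels are given as the processed signal in intensity units and, for tests, as log2 of that signal over the 75th percentile of its array, which ran from 556.8 to 669.8 units. A spot counted as well above background by the scanner software's flag. Such spots made up 68.6% to 69.0% of the B6 arrays and 58.0%, 62.2% and 64.7% of B6.MRLc1 arrays 1, 2 and 3. No spot was saturated. All arrays were on 1 slide and from 1 scan, with B6 in row 1 and B6.MRLc1 in row 2, so an effect of the row and one of the strain cannot be told apart. The labels give the arrays as separate samples of each strain, and p-values measure the spread between these arrays. In limma, 661 of 25275 genes tested (2.62%) passed an adjusted p under 0.05, with 102 higher and 559 lower in B6.MRLc1, and 20.3% had an unadjusted p under 0.05.

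Of the 7 members, 5 had every B6.MRLc1 array below every B6 array: Tssk1, Tssk2, Tssk3, Tssk6 and Tsks. The same held for 13.8% of all genes tested. Their fitted differences ran from -1.72 to -1.18 on the log2 scale, that is 2.26-fold to 3.28-fold lower signal. Of these, Tsks alone passed limma's adjusted threshold, beside 2.21% of all genes called lower. Tssk4 and Tssk5 gave overlapping strains and differences of -0.11 and 0.14. The median over the 7 members was -1.31, and that over all genes tested was 0.02. All 7 members passed the filter on dim probes, and all were well above background on the 3 B6 arrays. On the B6.MRLc1 arrays Tssk1 and Tssk2 were so on 2 of 3, and the others on 3 of 3.

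**Figure D1:**
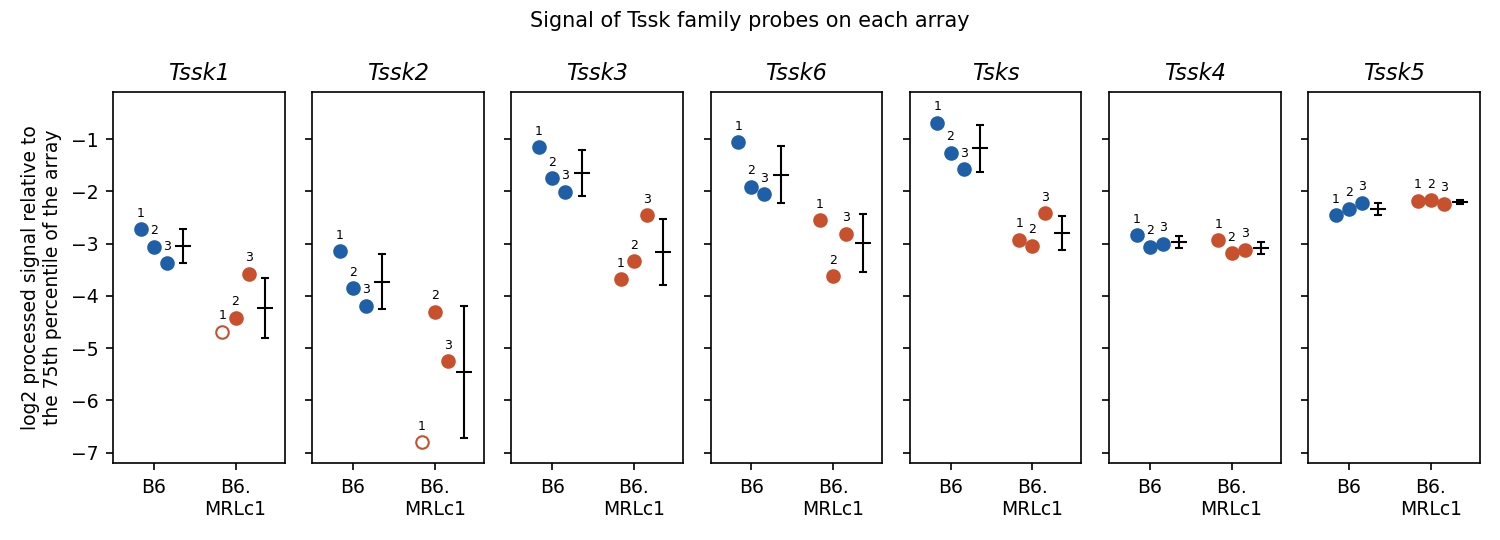
Each panel plots 1 member, with the log2 processed signal over its array's 75th percentile on the vertical axis. Points are arrays numbered by replicate (blue B6, orange B6.MRLc1, open where not well above background), and black bars are the mean ± SD of 3 arrays. The strains are apart in the first 5 panels and overlap for Tssk4 and Tssk5.

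Tsks, a substrate of Tssk1 and Tssk2, was called lower in B6.MRLc1. Its processed signal was 414, 270 and 194 in B6 (arrays 1 to 3) against 73.0, 73.4 and 105 in B6.MRLc1. Every B6 array lay above every B6.MRLc1 array, with a gap of 0.84 between the nearest arrays on the log2 scale. The scaled log2 level was -1.18 ± 0.45 (SD, n = 3) in B6 and -2.80 ± 0.33 (SD, n = 3) in B6.MRLc1. The fitted difference was -1.62 (SE 0.27), a 3.07-fold lower signal, with an adjusted p of 0.0484 in limma. The call was lost without any 1 array: the adjusted p was 0.104, 0.143 and 0.0554 without B6 array 1, 2 or 3, and 0.136, 0.127 and 0.0628 without B6.MRLc1 array 1, 2 or 3. It was also lost with each array centred on its median (adjusted p 0.0510) and with quantile normalization (0.0550).

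Tssk1 and Tssk2 are closely related kinases that act together in spermatids, and mice lacking both have infertile males. Tssk1 gave a processed signal of 101, 77.6 and 56.1 for B6 arrays 1 to 3 and 21.6, 28.2 and 47.2 on B6.MRLc1 arrays 1 to 3. The value of 21.6 was not well above background. The strains did not overlap, but the nearest arrays were 0.21 apart on the log2 scale. The scaled level was -3.05 ± 0.32 (SD, n = 3) in B6 and -4.23 ± 0.58 (SD, n = 3) in B6.MRLc1. The difference of -1.18 (SE 0.32) had an adjusted p of 0.128 in limma. It was -0.95, -1.08 and -1.5 without B6.MRLc1 array 1, 2 or 3, and -0.44 with normexp.

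Tssk2 gave 75.5, 44.7 and 31.8 in B6 and 5, 30.7 and 14.8 in B6.MRLc1, in array order. The value of 5 was not well above background, and it lay below the lowest signal that was so on that array, 24.8 units. That lowest signal was 18.7 and 14.2 units on B6.MRLc1 arrays 2 and 3 and 13.1, 11.9 and 11.2 on B6 arrays 1 to 3. The flag and a floor at that signal therefore do not hold both strains to the same level. B6.MRLc1 array 2 was only 0.11 below B6 array 3 on the log2 scale, so the strains nearly met. The scaled level was -3.73 ± 0.53 (SD, n = 3) in B6 and -5.45 ± 1.26 (SD, n = 3) in B6.MRLc1. The fitted difference of -1.72 (SE 0.66) had the widest error of the 7 and an adjusted p of 0.228 in limma. It was -1.04 without B6.MRLc1 array 1, and -0.94 when signals were raised to the lowest signal well above background on each array.

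Tssk3, a kinase needed for male fertility, gave a processed signal of 299, 192 and 144 on the B6 arrays and 43.5, 59.7 and 103 on the B6.MRLc1 arrays. All 6 values were well above background, and the strains were apart by 0.45 on the log2 scale. The scaled level was -1.64 ± 0.44 (SD, n = 3) in B6 and -3.16 ± 0.63 (SD, n = 3) in B6.MRLc1. The difference of -1.51 (SE 0.37) gave an adjusted p of 0.104 in limma and so did not pass.

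Tssk6, whose loss in mice impairs the condensation of sperm chromatin, gave 320, 172 and 139 on the B6 arrays and 95.2, 49.2 and 80.1 on the B6.MRLc1 arrays. The strains did not overlap and were 0.49 apart on the log2 scale. Here B6.MRLc1 array 1 was the highest of its strain, while it was the lowest for Tssk1, Tssk2 and Tssk3. The scaled level was -1.68 ± 0.54 (SD, n = 3) in B6 and -2.99 ± 0.56 (SD, n = 3) in B6.MRLc1, and the difference of -1.31 (SE 0.38) had an adjusted p of 0.138 in limma.

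Tssk4, a kinase that phosphorylates the tail protein Odf2, gave a processed signal of 93.5, 77.4 and 72.8 on the B6 arrays and 72.4, 66.7 and 64.7 on the B6.MRLc1 arrays. After scaling, the strains overlapped, at -2.97 ± 0.11 (SD, n = 3) in B6 and -3.08 ± 0.12 (SD, n = 3) in B6.MRLc1. The difference was -0.11 (SE 0.09; adjusted p 0.524 in limma). Tssk5, another kinase of the family, gave 122, 129 and 125 on the B6 arrays and 123, 134 and 119 on the B6.MRLc1 arrays. Its scaled strains overlapped too, at -2.34 ± 0.12 (SD, n = 3) in B6 and -2.20 ± 0.04 (SD, n = 3) in B6.MRLc1, and the difference was 0.14 (SE 0.08; adjusted p 0.364 in limma). Over all 6 arrays these probes spanned 0.34 and 0.29 on the log2 scale, against 2.51 for Tssk3, 2.55 for Tssk6 and 2.35 for Tsks, the other members with all 6 arrays well above background.

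**Figure D2:**
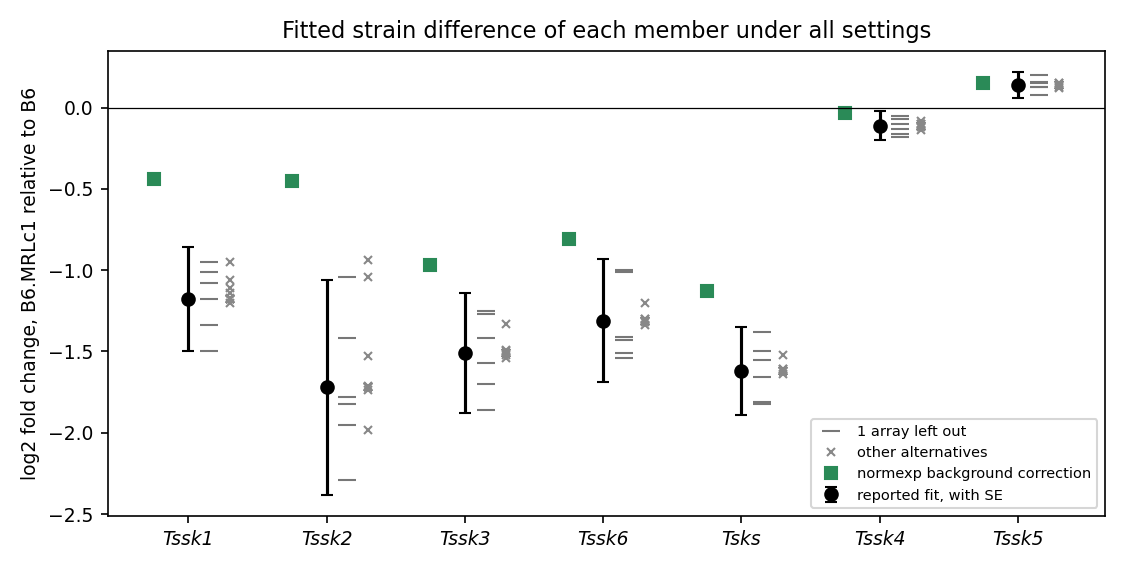
The vertical axis is the log2 fold change of B6.MRLc1 relative to B6 for each of the 7 members. Black points with bars are the reported fit ± SE, green squares the normexp background correction, dashes the fits with 1 array left out and crosses the other alternatives. Tssk1, Tssk2, Tssk3, Tssk6 and Tsks lie below 0 in every fit shown, and normexp gives their smallest differences, between -1.13 and -0.44.

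Within B6, the 5 members with separate strains were all highest on array 1 and lowest on array 3. A member's likeness to the family was taken as Pearson's r over the 6 arrays with the mean profile of the other members. It was 0.980 for Tssk3, 0.978 for Tsks, 0.958 for Tssk1, 0.784 for Tssk6, 0.723 for Tssk2 and 0.479 for Tssk4, and it was -0.901 for Tssk5. These values share the 6 arrays and the split between strains and are descriptive only.

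The difference between a pair of members within an array does not depend on how arrays are scaled. For 11 of the 21 pairs this difference did not overlap between strains. Each had the smallest p that an exact two-sided permutation test of 3 against 3 arrays can give, 0.10 (adjusted over the pairs 0.191). No pair could therefore pass. The pairs reuse the same 7 probes and 6 arrays. Most of the 11 set Tssk4 or Tssk5 against a member with separate strains. No share over all gene pairs was computed, so the count is a description only. With its sign kept, the strain difference of Tssk5 lay 1.76 above that of Tsks on the log2 scale, without overlap. That of Tssk4 lay 1.5 above that of Tsks and 1.2 above that of Tssk6, again without overlap. Tssk1 and Tssk2 differed in strain effect by 0.54, with overlap (exact permutation p = 0.50). Tssk3 and Tsks differed by 0.11, with overlap (exact permutation p = 0.70). The pairs without overlap also included members of the group of 5: Tssk1 fell less than Tssk3, by 0.34, and less than Tsks, by 0.44. Tssk2 and Tssk4, by contrast, overlapped, with a difference of -1.6 (exact permutation p = 0.20).

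The list of genes tied to the kinases held 12 chaperones, activators, substrates and other partners, among them Hsp90aa1, Tsacc, Crem and Creb1. Its median was -0.04, and 1 of 12 passed limma's threshold, lower, with 0 higher. At an unadjusted p under 0.05 were 5 of the 12, beside 20.3% of all genes tested, of which 2.62% were called. The gene called was Odf2, a protein of the outer dense fibres of the sperm tail, at 2.37 ± 0.19 (SD, n = 3) in B6 and 1.45 ± 0.24 (SD, n = 3) in B6.MRLc1. Its difference was -0.92 (SE 0.16; adjusted p 0.0488). The call was lost without B6 array 1, 2 or 3 (adjusted p 0.125, 0.125 and 0.0781) and without B6.MRLc1 array 1 or 2 (0.129 and 0.131). It was also lost with median centring (0.0524), the floor (0.0535), every probe as its own test (0.0567), the series table (0.0521), no dim filter (0.0916) and the replicate block (0.147). With the mean over its probes the difference was -0.45 (adjusted p 0.0465). The next smallest p was that of Top2b, a DNA topoisomerase, with 0.24 (SE 0.06; adjusted p 0.10).

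Of 20 other protein kinases with a germ cell role, 17 were tested. Their median was -0.05, and 2 of 17 were called, both lower, beside 2.21% of all genes, with 7 of 17 at an unadjusted p under 0.05, beside 20.3% of all genes. Plk1, a kinase of cell division, fell by 0.70 (SE 0.07; adjusted p 0.0191 in limma). Nek2, a centrosomal kinase, fell by 0.60 (SE 0.08; adjusted p 0.0288). Plk1 lost its call without B6 array 1 or 2 (adjusted p 0.0684 and 0.0566) and without B6.MRLc1 array 1 or 2 (0.0611 and 0.0561). Nek2 lost it without B6 array 1 or 2 (0.0974 and 0.0942) and without B6.MRLc1 array 1, 2 or 3 (0.0868, 0.0731 and 0.0713). With no dim filter and with the replicate block, Plk1 (0.0535 and 0.103) and Nek2 (0.0682 and 0.106) lost theirs too.

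Among 20 kinases of the CAMK group that are more widely made, the median was 0.02 and 1 was called in limma, lower, beside 2.62% of all genes called. At an unadjusted p under 0.05 were 5 of the 20, a share near the 20.3% of all genes. Melk, an AMPK-related kinase, fell by 0.41 (SE 0.06; adjusted p 0.0400). It lost its call without any 1 array, with adjusted p-values of 0.114, 0.119 and 0.0709 without B6 array 1, 2 or 3 and 0.0847, 0.116 and 0.106 without B6.MRLc1 array 1, 2 or 3, nor was it called with no dim filter (0.0852) or the replicate block (0.138). Brsk2, a related kinase known from neurons, gave -0.52 (SE 0.09) and an adjusted p of 0.0531. Its difference was -0.26 with the mean over its probes and -0.29 with normexp.

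Marker lists of the stages in which the kinases are made read lower beside them, and their part in the members' differences was not tested. In whole tissue, fewer cells of a type and less RNA per cell cannot be told apart. Of 18 round spermatid markers 15 were tested: 10 were called lower and 0 higher in limma, with a median of -1.49. Their summed level, as a multiple of the array's 75th percentile, was 6.71 to 9.62 in B6 and 2.84 to 3.44 in B6.MRLc1. Of 18 elongating spermatid markers 17 were tested: all 17 fitted differences were below 0, the median was -2.07, and 3 were called lower. Their summed level was 16.5 to 48.6 in B6 and 3.11 to 7.86 in B6.MRLc1. In all genes tested, 46.0% of fitted differences were below 0 and 2.21% were called lower.

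The counts of spermatid markers changed with the setting and when 1 array was left out. With normexp 10 round and 10 elongating spermatid markers were called lower, with medians of -0.70 and -0.94. The dim filter asked for 3 arrays, so a marker could pass on its B6 arrays alone. Among probes above background on all arrays, 11 round and 10 elongating spermatid markers remained, with medians of -1.36 and -1.98. Of these, 7 and 3 were called lower, beside 394 of 22068 genes. The elongating count was 12 with a variance trend, 10 with array weights, 2 with quantile normalization, the floor or every probe as its own test, and 1 with the series table. Both counts were 0 in limma with no dim filter and with the replicate block, where 13 round and 15 to 16 elongating spermatid markers had an unadjusted p under 0.05. The round spermatid count was 0, 2 and 4 without B6 array 1, 2 or 3 and 1, 1 and 8 without B6.MRLc1 array 1, 2 or 3. The elongating spermatid count was 0, 0 and 2 without B6 array 1, 2 or 3 and 0, 0 and 6 without B6.MRLc1 array 1, 2 or 3. In these fits 12 to 13 round spermatid markers and 13 to 17 elongating spermatid markers had an unadjusted p under 0.05 in limma, beside 14.3% to 23.5% of all genes, and the list medians lay between -2.44 and -1.41.

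The arrays ran much alike in the family and in the spermatid lists. Each array was scored for a list by centring every gene on its 6-array mean and taking the median of the list's genes. The family scored 1.24, 0.58 and 0.27 on B6 arrays 1 to 3 and -0.94, -0.78 and -0.10 on B6.MRLc1 arrays 1 to 3. Elongating spermatid markers scored 1.63, 0.87 and 0.48 and then -1.24, -1.65 and -0.36. Round spermatid markers scored 0.98, 0.68 and 0.64 and then -0.83, -0.83 and -0.55. In all 3 lists B6 array 1 was highest, and B6.MRLc1 array 3 was the highest of its strain.

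**Figure D3:**
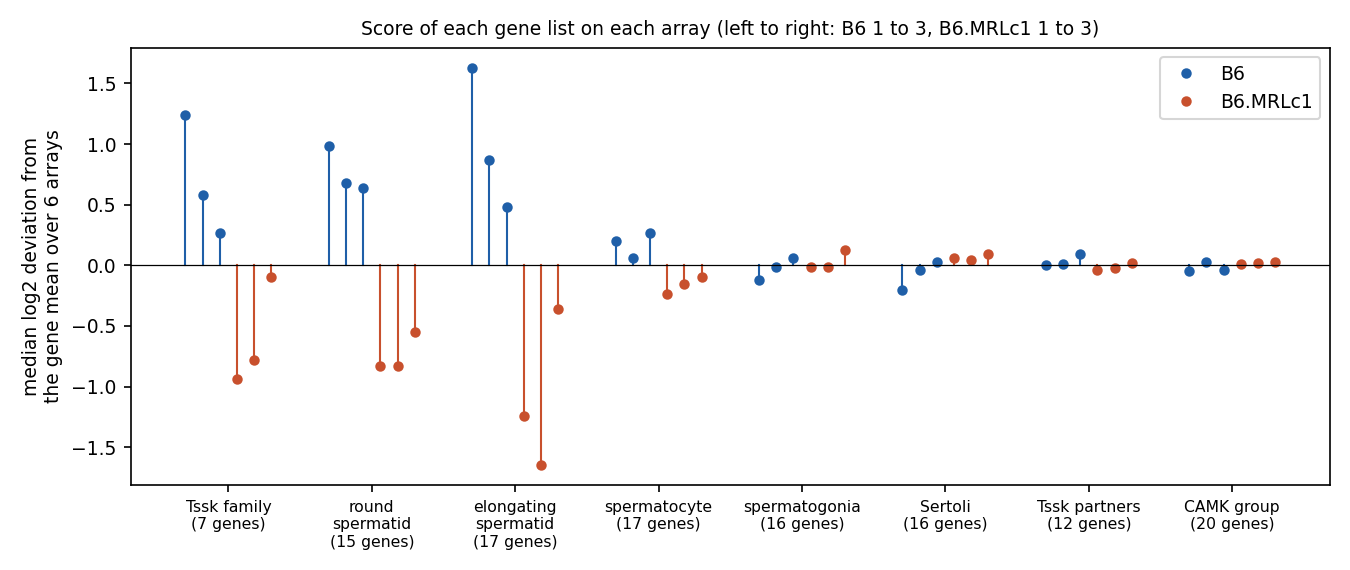
The vertical axis is the median over a list's genes of the log2 level minus the gene's mean over 6 arrays, for 8 gene lists. Each stem is 1 array (blue B6 arrays 1 to 3, orange B6.MRLc1 arrays 1 to 3). The family, both spermatid lists and the spermatocyte list are above 0 on all B6 arrays and below 0 on all B6.MRLc1 arrays. The spermatocyte scores run only from -0.24 to 0.27. The partner and CAMK lists stay within 0.09 of 0.

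Markers of earlier germ cells and of the somatic cells of the testis had list medians from -0.45 to 0.16. Spermatocyte markers had a median of -0.45, with 4 of 17 called lower, beside 2.21% of all genes. That count was 1, 1 and 2 without B6 array 1, 2 or 3 and 1 without each B6.MRLc1 array, 1 with no dim filter and 0 with the replicate block, where 9 of 17 had an unadjusted p under 0.05 in limma. The spermatocyte median was -0.10 with normexp, -0.09 for probes above background on all arrays, -0.21 with the floor, -0.29 with the mean over probes and -0.28 with array weights. Of the 17 spermatocyte differences, 14 were below 0, beside 46.0% of all genes tested. In 9 of 17, every B6.MRLc1 array lay below every B6 array, beside 13.8% of all genes. The 17 include markers that were not above background on every array and could pass the filter on B6 arrays alone. Among probes above background on all arrays, 13 were tested and 3 were called lower, with 5 at an unadjusted p under 0.05 in limma. The summed spermatocyte level was 14.1 to 18.2 in B6 and 8.7 to 10.2 in B6.MRLc1. Spermatogonial markers had a median of 0.11, with 1 of 16 called lower and 0 without B6 array 1, where 1 was called higher. No marker of Sertoli cells (16 tested, median 0.11), Leydig cells (9 tested, 0.05), smooth-muscle-like myoid cells (8 tested, 0.16) or macrophages (10 tested, -0.17) passed in limma, while 3, 3, 3 and 1 of them had an unadjusted p under 0.05, beside 20.3% of all genes. Differences below 0 made up 2 of 16 Sertoli, 3 of 9 Leydig, 1 of 8 myoid and 9 of 10 macrophage markers. In all genes tested the share was 46.0%. With a variance trend or array weights, 1 Sertoli, 1 Leydig and 1 myoid marker were called higher. Normexp and the fit without B6 array 3 each called 1 Leydig marker higher. Without B6 array 3, 7 of 16 Sertoli and 7 of 10 macrophage markers had an unadjusted p under 0.05 in limma, beside 23.5% of all genes. The summed Sertoli level was 916 to 1010 in B6 and 981 to 1020 in B6.MRLc1. Fat cell markers had a median of 1.04 with 1 of 9 called higher and 7 of 9 at an unadjusted p under 0.05. The call was lost in limma without any 1 array, where 1 to 7 of 9 had an unadjusted p under 0.05, and with no dim filter (5 of 10) or the replicate block (7 of 9). Their summed level was 7.5 to 9.52 in B6 and 10.8 to 18.8 in B6.MRLc1. Red cell markers had 1 of 4 called lower, with a median of 0.47, which was 0.05 to 0.99 without 1 array. Of 10 epididymis markers, 6 were not well above background on any array. Of the 3 tested, 1 was called lower, beside 2.21% of all genes, and the median was 0.24. The count was 0 only with the replicate block, where 1 had an unadjusted p under 0.05 in limma.

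Outside the family, 14216 named genes were well above background on all 6 arrays and were ranked by Pearson's r with the family's mean profile over the arrays. The profile was 0.88, 0.43 and 0.26 for B6 arrays 1 to 3 and -0.79, -0.55 and -0.23 on B6.MRLc1 arrays 1 to 3. The 8 most alike were Cdkn3, Spaca9, Aig1 and Zfp850 (r = 0.995 each), Chn2 (0.994), Casz1 (0.993), Ripk3 (0.992) and Cib3 (0.992). All 8 ranked the 6 arrays in the order of the profile. The profile itself separates the strains, so genes chosen for their likeness to it had to differ between strains, and their differences are given as a description with no test. They ran from -1.96 for Zfp850, a zinc finger protein, and -1.84 for Spaca9, a sperm protein, to -0.34 for Cib3. With the mean over a gene's probes Zfp850 gave -1.06 and Chn2 gave -0.29 in place of -0.87, and with normexp Cib3 gave -0.06.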

How the data were processed

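The authors column-purified total testis RNA, labelled 0.1 ug with Cy3 and hybridised 1-colour arrays, per the labels' protocols. The deposited scanner tables hold processed intensity per spot, background-subtracted and detrended per the file headers and left unscaled across arrays; the headers name Feature Extraction 10.7.3.1, the submitters' processing notes version 9.5.3. Spot flags in the deposited tables are 0 or 1. The deposited series table holds log2 values, and the sources used here do not say how the authors made them. At least 99.9% of them lay within 0.05 of the scaled log2 signal minus the probe's median, and their column medians were -0.00297, -0.00405, 0.0144, 0.00474, 0.00986 and 0.0161.

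Here control spots and outlier-flagged spots were left out, and log2 signals were set relative to the array's 75th percentile over all spots but controls. Spots of a probe were averaged. Probes were kept with more than 0.5 of spots well above background on at least 3 arrays and values on at least 4 (36626 of 55681). Each gene's probe of highest mean was tested with limma 3.58.1 (R 4.3.3), B6.MRLc1 relative to B6, with Benjamini-Hochberg adjustment over 25275 genes. Gene names came from RefSeq accessions (27235 probes, GRCm38.p6), from symbols in that table (3581) or from the array alone (24865). The fit was run on simulated data with differences larger than the members' fitted ones, so that run does not bear on the members' calls. Motifs and alignments used Biopython 1.88 (Python 3.11.15), figures matplotlib 3.10.9. Alternatives covered background correction, scaling, the dim filter, a floor, probe choice, the series table, variance model, weights, the replicate number as a block and each array left out.

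The members, the lists and the rule for named genes were chosen with earlier results of these data known. That rule names all members, up to 4 called genes of each partner and kinase list (or the 2 of smallest p) and the 8 genes most like the family profile. The number of arrays limits the precision.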

Additional observations from a re-analysis of the deposited data

How the results depend on the processing

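All 7 members kept the sign of their difference in every alternative that gave them a value (19, and 18 for Tssk1 and Tssk2, which had none when probes had to be above background on all arrays). Tsks was called in 6 of 19, between an adjusted p of 0.0176 with a variance trend and 0.148 with the replicate block, and no other member in any. The number of members called was 0 with median centring, quantile normalization, no dim filter, the floor, every probe as its own test, the series table's values, the replicate block and in all fits without 1 array (0 to 0), where limma gave 4 to 5 of 7 members, beside 14.3% to 23.5% of all genes, an unadjusted p under 0.05. The family median was -0.45 with normexp, whose offset of 50 draws dim signals together, and -1.51 to -1.01 without 1 array. Over all genes, the 661 calls became 50 with no dim filter, 440 from the series table, 1606 with array weights, 1202 under a variance trend, 0 with the replicate block (4865 at an unadjusted p under 0.05) and 50 to 482 without 1 array; the cause was not tested. Whether the replicate numbers pair the arrays was not tested. Deviations of same-numbered arrays correlated at -0.0443, 0.172 and 0.0877, and B6 arrays 2 and 3, but not 1, correlated best with their own number. The number is also the slide column in both strains, so the block takes up slide column too. Tssk1 and Tssk2 lay near background in B6.MRLc1, which limits their folds.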
